A study of Mus musculus with 2 samples.

Results

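The Ly49 receptor family was followed here in leukocytes resident in mouse adipose tissue. The 7 members, Klra1, Klra3, Klra4, Klra6, Klra7, Klra8 and Klra9, were taken by gene symbol from the 28692 genes of the deposited matrices. Adult wild-type C57BL/6 mice had received either chow, labelled as the control treatment, or a ketogenic diet (KD) for 1 week. In both groups CD45+ cells resident in adipose tissue, which the series title gives as visceral, were separated from cells inside the vessels by intravenous labelling and were profiled by droplet single-cell RNA sequencing with a 10x Genomics protocol. Each diet was represented by 1 library, and the number of mice behind a library is not given in the sources used here. No statistical test between diets is therefore possible. Each value below is a level in CPM, the unique molecular identifiers (UMIs) of a gene per 1000000 UMIs of the cells summed, and its 95% interval covers counting error only.

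Ly49 receptors are C-type lectin-like proteins of natural killer (NK) cells and of some T cells, and in the mouse they do the work that killer immunoglobulin-like receptors do in humans. Most members carry an immunoreceptor tyrosine-based inhibitory motif (ITIM) near their start, which sits on the inner side of the membrane, and dampen killing when they meet class I major histocompatibility proteins on another cell. A few members lack that motif, associate with the adaptor Tyrobp and activate the cell. NK cells switch members on in a variegated way, so that neighbouring cells carry different combinations.

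The first coding bases are printed because they hold the ITIM position, at which the inhibitory and the activating members differ. Klra1 (Ly49A), Klra3 (Ly49C), Klra6 (Ly49F), Klra7 (Ly49G) and Klra9 (Ly49I) are the inhibitory members, and Klra4 (Ly49D) and Klra8 (Ly49H) the activating ones. All 7 lie on the minus strand of chromosome 6 of GRCm38 within 373.842 kb, chr6:130013033-130386874. The first 42 coding bases of each, in the first coding exon of the GENCODE M21 annotation, are given 5′ to 3′, with codons 6 to 11, the ITIM position, in capitals.
Klra1 at chr6:130380621-130380662: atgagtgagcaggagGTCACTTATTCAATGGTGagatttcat
Klra3 at chr6:130335758-130335799: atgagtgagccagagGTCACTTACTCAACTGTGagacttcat
Klra6 at chr6:130025178-130025219: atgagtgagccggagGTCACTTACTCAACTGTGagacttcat
Klra7 at chr6:130231576-130231617: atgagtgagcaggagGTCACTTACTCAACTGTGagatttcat
Klra9 at chr6:130191260-130191301: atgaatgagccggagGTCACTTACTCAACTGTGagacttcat
Klra4 at chr6:130065261-130065302: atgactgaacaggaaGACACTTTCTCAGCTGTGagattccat
Klra8 at chr6:130128119-130128160: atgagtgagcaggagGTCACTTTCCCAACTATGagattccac
In the 5 inhibitory members codon 8 is TAT or TAC, both of which encode tyrosine. In Klra4 and Klra8 it is TTC, a phenylalanine codon, which is the substitution A23T against Klra7, counted from 1 at the A of the ATG. Over the whole coding sequence Klra4 and Klra8 were not the closest pair: their identity was 78.2%, rank 14 of the 21 pairs, whereas Klra3 and Klra9 were the most alike at 95.9%.

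The chow library held 4545 cells and the ketogenic library 5614, with median depths of 3469 and 3461.5 UMIs per cell, and the deposited clustering covered 4458 and 5559 of them. Ptprc, which encodes CD45, had a UMI in 82.6% (95% interval 81.5 to 83.7) and 82.3% (81.3 to 83.3) of the clustered cells. Of the 10159 barcodes, 41 occurred in both libraries. Cluster 1 was called NK-like, since all 10 NK markers were raised in it. Cluster 4 had 6 of 8 T cell markers and 5 of 10 NK markers raised, with Cd3d, Cd3g and Cd3e among its 10 leading genes, and is called by its number. The deposited clustering may have used the members themselves: Klra8, Klra4 and Klra9 were among the 10 leading genes of cluster 1, and Klra1, Klra7 and Klra6 among those of cluster 4. Levels across clusters are therefore descriptions.

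Transcripts of the family were concentrated in clusters 1 and 4, which together held between 80% (Klra6, chow) and 90.9% (Klra4, ketogenic) of each member's UMIs in clustered cells. Summed over the 7 members, the level was 1987 CPM in cluster 1 of the chow library and 2558 CPM in that of the ketogenic library. In cluster 4 the sum was 1226 CPM and 1674 CPM. Across the other 11 clusters the sum ran from 26.3 to 211 CPM under chow and from 27.8 to 290 CPM under KD. Of the 77 values that 7 members gave in those 11 clusters, 72 under chow and 59 under KD were below 20 CPM.

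**Figure D1:**
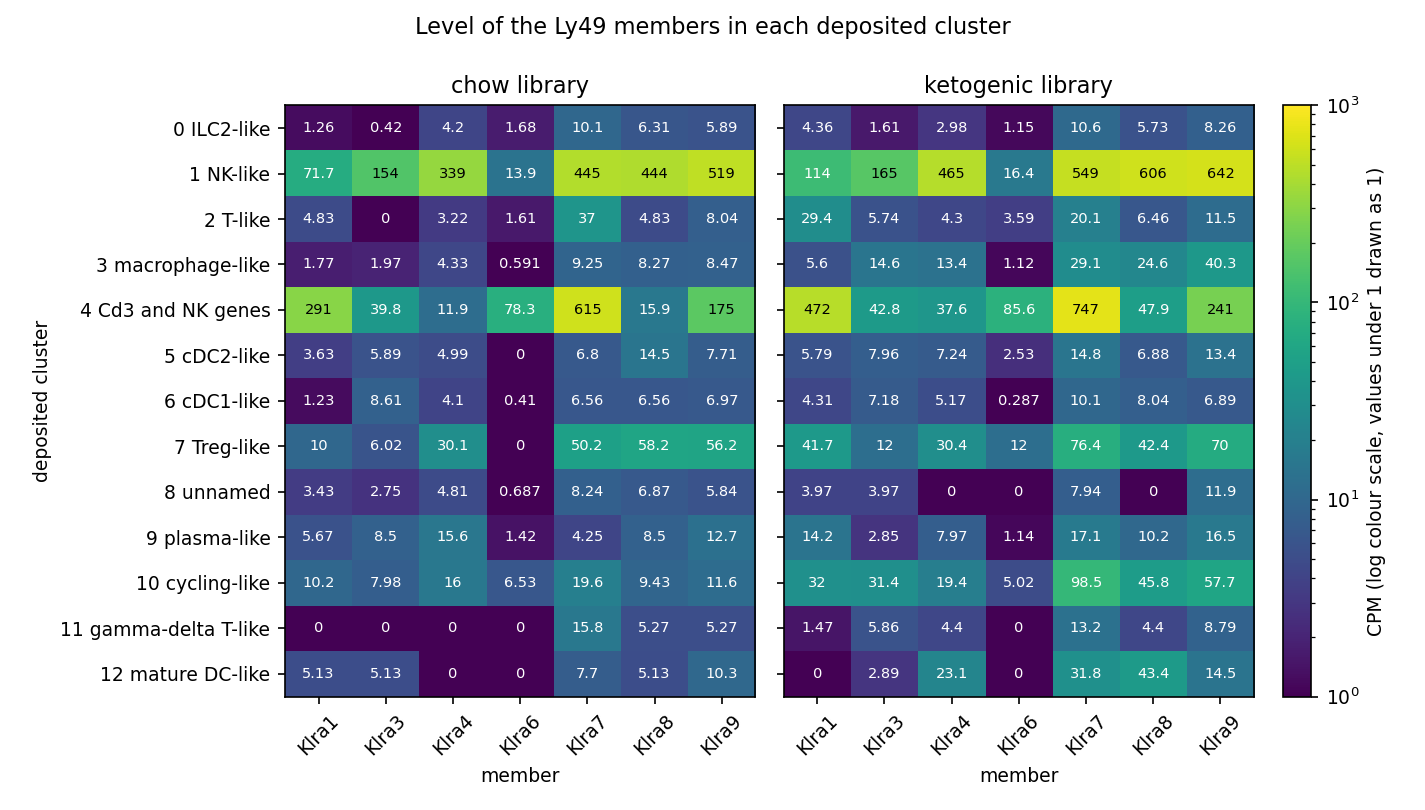
Level of the 7 members (columns) in the 13 deposited clusters (rows), in CPM of the summed UMIs on a log colour scale with the value written in each cell, for the chow and the ketogenic library. Klra1, Klra6 and Klra7 are higher in cluster 4 than in cluster 1, and Klra3, Klra4, Klra8 and Klra9 lower, with Klra4 in cluster 4 at 11.9 and 37.6 CPM and Klra8 at 15.9 and 47.9 CPM.

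Among the inhibitory members, Klra1, Klra6 and Klra7 were highest in cluster 4, and Klra3 and Klra9 in cluster 1. Klra1, whose product binds H-2D class I proteins of some mouse strains, stood at 291 CPM in cluster 4 and 71.7 CPM in cluster 1 under chow, and at 472 and 114 CPM under KD. Its level in cluster 4 was thus 4.05 times (95% interval 3.24 to 5.08) and 4.13 times (3.67 to 4.65) that in cluster 1. Klra6 stood at 78.3 against 13.9 CPM under chow and at 85.6 against 16.4 CPM under KD, ratios of 5.63 (3.47 to 9.39) and 5.21 (3.85 to 7.14). Klra7 differed least between the clusters, at 615 against 445 CPM and 747 against 549 CPM, ratios of 1.38 (1.23 to 1.55) and 1.36 (1.27 to 1.46). Klra6 in cluster 1 was not separated by its interval from the next cluster in the order, the cycling-like cluster 10 under chow and the Treg-like cluster 7 under KD.

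Klra3 and Klra9, whose products recognise H-2K of C57BL/6 mice, had the opposite order. Klra3 was at 154 CPM in cluster 1 and 39.8 CPM in cluster 4 under chow, and at 165 and 42.8 CPM under KD, so that cluster 1 was 3.85 times (2.64 to 5.82) and 3.86 times (3.07 to 4.92) higher. Klra9 was at 519 and 175 CPM under chow and at 642 and 241 CPM under KD, ratios of 2.96 (2.47 to 3.58) and 2.67 (2.41 to 2.95). Under the ketogenic diet, the interval of Klra3 in cluster 4 overlapped that in the cycling-like cluster 10, at 31.4 CPM.

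The activating members were low in cluster 4. Klra4 stood at 339 CPM in cluster 1 and 11.9 CPM in cluster 4 under chow, from 610 and 9 UMIs, and at 465 and 37.6 CPM under KD, from 1672 and 73 UMIs. Klra8, the receptor for a mouse cytomegalovirus glycoprotein, stood at 444 and 15.9 CPM under chow, from 798 and 12 UMIs, and at 606 and 47.9 CPM under KD, from 2178 and 93 UMIs. Cluster 1 was higher than cluster 4 by 28.4 times (14.9 to 62.4) for Klra4 and 27.9 times (15.9 to 54.2) for Klra8 under chow. Under the ketogenic diet the ratios were 12.4 (9.78 to 15.8) and 12.6 (10.3 to 15.7). Put as a share, Klra4 and Klra8 together gave 39.4% (95% binomial interval 37.8 to 41.0) and 41.9% (40.9 to 42.9) of all member UMIs in cluster 1, and 2.27% (1.41 to 3.45) and 5.11% (4.38 to 5.92) in cluster 4.

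Each member kept its direction when cells were taken by marker UMIs in place of the clusters. The comparison of such cells with and without Cd3 was added after seeing the data. Cells with a UMI of the NK receptor genes Ncr1 or Klrb1c and none of Cd3e, Cd3d and Cd3g numbered 734 under chow and 951 under KD. Cells with an NK receptor UMI and at least 2 UMIs of the Cd3 genes numbered 210 and 672. Klra4 was 4.52 times (3.11 to 6.82) and 4.94 times (4.27 to 5.74) higher in the cells without Cd3, and Klra8 4.003 times (2.92 to 5.63) and 5.41 times (4.76 to 6.17). Klra1 was 7.39 and 4.25 times, and Klra6 11.3 and 6.90 times, higher in the cells with Cd3. Klra7 was 2.48 and 1.24 times higher in the cells with Cd3. Klra3 was 1.54 and 2.75 times, and Klra9 1.22 and 2.01 times, higher in the cells without Cd3. These ratios are smaller for Klra3, Klra4, Klra8 and Klra9 than between the clusters, and 20.95% and 14.9% of the cells with both kinds of marker lay in cluster 1. Most cells were the same as in the clusters, so the comparison is not independent of them. Of the cells without Cd3, 73.3% and 81.3% lay in cluster 1, and of those with Cd3, 60.5% and 51.8% in cluster 4.

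In the clusters with the next highest sums, 7 and 10, most member UMIs sat in a small number of cells. The same was seen in cluster 9, where cells with 3 or more member UMIs held 75.0% and 67.5% of them, and over the remaining clusters outside 1 and 4 that share ran from 0% to 82.5%. In the Treg-like cluster 7 the 7 members summed to 211 CPM under chow and 285 CPM under KD. Under chow, 13 of its 160 cells had 3 or more member UMIs and held 81.0% of the cluster's member UMIs. Of these 13 cells, 12 had a UMI of Ncr1 or Klrb1c and 3 had one of a Cd3 gene, whereas 91.8% of the cluster's other cells had a Cd3 UMI. Under the ketogenic diet there were 40 such cells of 328, 31 with an NK receptor UMI and 25 with a Cd3 UMI, at a median of 6240 UMIs per cell against 3527.5 for the whole cluster. Of the other ketogenic cells of cluster 7, 12.2% had an NK receptor UMI and 98.3% a Cd3 UMI. In the cycling-like cluster 10, 6 cells under chow and 25 under KD had 3 or more member UMIs. Of these, 4 and 17 had an NK receptor UMI, and 4 and 19 had a Cd3 UMI. In the other cells of cluster 10 the shares were 15.4% and 27.9% for an NK receptor UMI and 34.6% and 63.6% for a Cd3 UMI. Droplets holding more than 1 cell were not called here, and their part in these values was not tested.

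The gamma-delta T-like cluster 11, a group marked by IL-17-type genes, had a low Ly49 sum, 26.3 CPM under chow and 38.1 CPM under KD, beside 29.8 and 34.6 CPM in the ILC2-like cluster 0. Its 59 chow cells gave 5 member UMIs and its 170 ketogenic cells gave 26, with no cell at 3 or more in either library. No UMI of Klra1, Klra3, Klra4 or Klra6 was found there under chow, where the limit taken for a count of 0, 3 counts, is 15.8 CPM for each. In cluster 4, which also contains cells with the delta chain transcript Trdc, the members could be split by a Trdc UMI. Trdc was also found in the NK-like cluster 1, at 73.4 CPM under chow and 102 CPM under KD, beside 183 and 269 CPM in cluster 4. A Trdc UMI therefore does not by itself mark a gamma-delta T cell. Under chow Klra7 was at 203 CPM (130 to 303) in the 44 cells with Trdc and 691 CPM (628 to 759) in the 225 without, and under KD at 294 CPM (244 to 351) in 108 and 872 CPM (826 to 920) in 407. Klra1 had the same order, at 93.2 against 327 CPM and 258 against 531 CPM. Klra4 went the other way under KD, at 132 CPM (99.1 to 171) with Trdc and 11.8 CPM (7.01 to 18.7) without, while under chow it rested on 1 and 8 UMIs. Klra8 had the same order under KD, at 110 CPM (80.5 to 147) with Trdc and 30.9 CPM (22.7 to 41.1) without, and rested on 0 and 12 UMIs under chow. The cell with the most UMIs of both genes was among those with Trdc, and without it Klra4 stood at 71.2 CPM (47.7 to 102) and Klra8 at 76.1 CPM (51.7 to 108) in the remaining 107.

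Pairs of members differed in how alike their patterns were over the 26 sums of cluster and library. Klra4 and Klra8 had the most similar pattern (Pearson r of log2 CPM with 20 added, 0.98), followed by Klra1 and Klra6 (0.96). Klra6 and Klra8 were the least alike (0.36). The 26 points share libraries and depth, and clusters 1 and 4 set most of their range. The promoters of these 4 genes are printed because the members move together in pairs. For Klra8, which has 2 RefSeq starts, the one that matches the GENCODE gene start is used. Each is the 300 bases from 250 before to 50 after a RefSeq gene start on the minus strand of GRCm38.p6, credited to RefSeq, 5′ to 3′, and capitals mark the motifs searched for.
Klra4 at chr6:130067222-130067521: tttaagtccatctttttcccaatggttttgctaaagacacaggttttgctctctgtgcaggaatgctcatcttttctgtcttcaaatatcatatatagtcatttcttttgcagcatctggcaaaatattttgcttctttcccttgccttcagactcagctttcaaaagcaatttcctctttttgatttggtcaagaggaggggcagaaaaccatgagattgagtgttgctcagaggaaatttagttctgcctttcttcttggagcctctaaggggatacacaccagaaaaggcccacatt
Klra8 at chr6:130129849-130130148: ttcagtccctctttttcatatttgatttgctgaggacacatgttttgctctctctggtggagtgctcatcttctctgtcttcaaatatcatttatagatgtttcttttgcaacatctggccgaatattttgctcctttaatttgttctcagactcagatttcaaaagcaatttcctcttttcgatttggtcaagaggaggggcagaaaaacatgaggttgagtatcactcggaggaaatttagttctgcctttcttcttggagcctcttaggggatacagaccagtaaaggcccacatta
Klra1 at chr6:130386825-130387124: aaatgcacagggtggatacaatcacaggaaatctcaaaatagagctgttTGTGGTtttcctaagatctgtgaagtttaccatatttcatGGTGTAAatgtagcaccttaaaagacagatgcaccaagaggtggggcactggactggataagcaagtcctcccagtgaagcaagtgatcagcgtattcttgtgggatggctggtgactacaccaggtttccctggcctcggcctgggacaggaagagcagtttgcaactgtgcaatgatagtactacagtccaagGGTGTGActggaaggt
Klra6 at chr6:130026905-130027204: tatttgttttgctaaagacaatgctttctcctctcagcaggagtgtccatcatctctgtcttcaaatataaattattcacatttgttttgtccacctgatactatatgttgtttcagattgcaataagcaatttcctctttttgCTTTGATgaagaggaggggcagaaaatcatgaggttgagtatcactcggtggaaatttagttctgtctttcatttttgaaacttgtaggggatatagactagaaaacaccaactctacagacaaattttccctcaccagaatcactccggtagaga
All 7 members had an entry in the promoter table, with 9 gene starts between them. Klra4 and Klra8 had the most similar promoters of the 21 pairs, at 86.0% identity. Klra1 and Klra6, despite their similar pattern, had 47.6%, and the Klra1 window was at most 50.3% identical to that of any other member. The coding sequence of Klra1 begins in exon 4 of its annotated transcript, and those of Klra4, Klra6 and Klra8 in exon 2. The Klra1 window may therefore lie at a start that does not match those of the others, which was not tested. On either strand, the T-box letters GGTGTNA occurred in Klra1 alone, against 10.2% of 32851 promoters of this length. The TCF letters CTTTGAT occurred in Klra6 and Klra7 (3.73% of promoters), CTTTGTT in Klra7 and Klra9 (5.85%), and the RUNX letters ACCACA in Klra1 (16.8%). Neither Klra4 nor Klra8 held any of the 4 motifs in these windows, which says only that the letters are not there.

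The diet comparison asked how 1 week of ketogenic feeding altered the resident leukocytes. In the NK-like cluster 1, all 7 members were higher in the ketogenic than in the chow library, by modest amounts. Their sum was 1.29 times higher (95% interval 1.24 to 1.34, a log2 ratio of 0.36), from 3572 UMIs in 724 cells and 9195 UMIs in 1062 cells. Klra1 differed most, from 71.7 CPM (59.9 to 85.2) to 114 CPM (104 to 126), a ratio of 1.59 (1.30 to 1.96). The activating members Klra4 and Klra8 had almost equal ratios, 1.37 (1.25 to 1.51) and 1.37 (1.26 to 1.48). Klra7 and Klra9 stood at 1.23 (1.13 to 1.34) and 1.24 (1.15 to 1.34). The ratios of Klra3, 1.08 (0.93 to 1.25), and of Klra6, 1.18 (0.73 to 1.97), had intervals that include 1. None of the 7 passed the 2-fold limit, which 5.43% of the 9028 genes with at least 20 UMIs passed in either direction, and 1 passed a 1.5-fold limit upward, against 10.5% of genes. The median log2 ratio was 0.31 over the members and 0.02 over all genes tested, of which 52.1% were higher under KD.

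**Figure D2:**
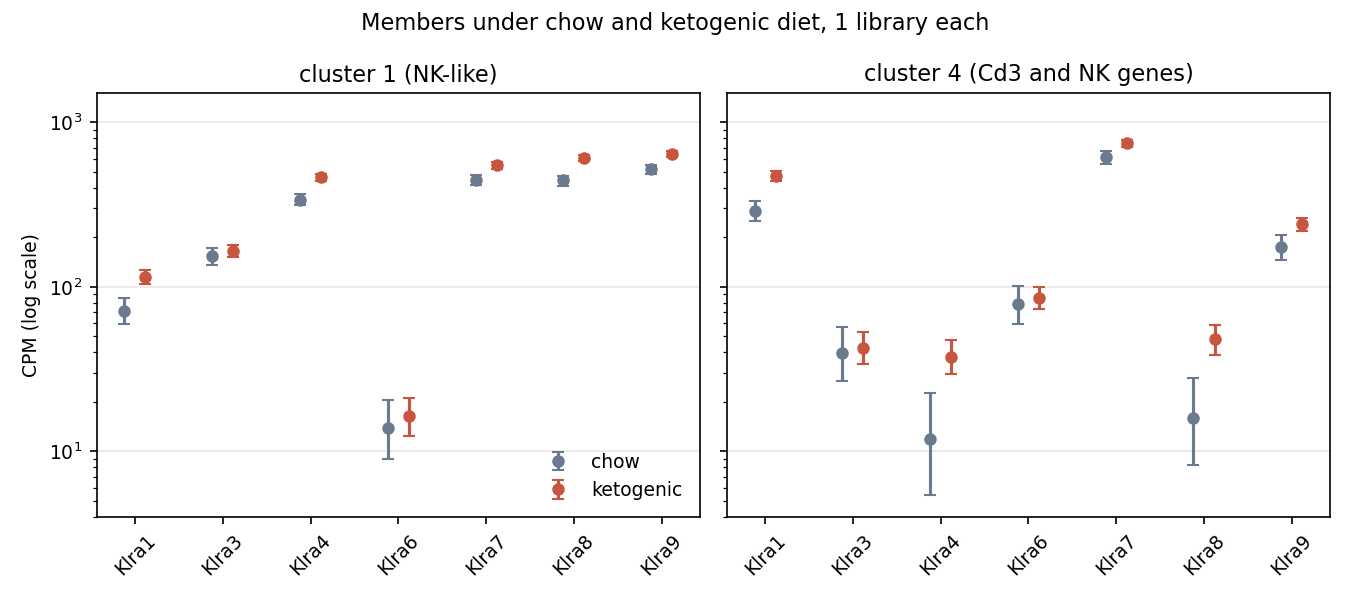
Level of each member in CPM on a log axis in the chow and ketogenic libraries, in cluster 1 (left) and cluster 4 (right), where points are the single library of each diet and bars the exact Poisson 95% interval. Every ketogenic point lies above its chow point, by 1.08 to 1.59 times in cluster 1 and 1.07 to 3.15 times in cluster 4.

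Cells with a member were also somewhat more frequent among NK-like cells under KD. The ketogenic NK-like cells were deeper, at a median of 3147 UMIs against 2296.5, so every cell was thinned to 1000 UMIs. After thinning, 62.9% (59.2 to 66.4) of the chow and 68.02% (65.1 to 70.8) of the ketogenic NK-like cells held a member UMI, against 73.9% and 79.3% without thinning. In cDC1-like dendritic cells, which should lack the receptors, the thinned shares were 3.37% and 3.76% at median depths of 7906 and 9922 UMIs. The thinned share was higher under KD for each of the 7 members, from 33.8% to 36.9% for Klra9, 25.0% to 29.6% for Klra7, 23.3% to 29.0% for Klra8, 17.1% to 20.6% for Klra4, 11.7% to 11.8% for Klra3, 5.05% to 7.50% for Klra1 and 1.29% to 1.52% for Klra6. Within the cells that had a member UMI, the summed level went from 2753 to 3259 CPM, a ratio of 1.18 (1.14 to 1.23). Taken member by member, within the cells that had a UMI of that member, the level was higher under KD for 4 of the 7 and lower for Klra3, Klra6 and Klra7, at ratios of 0.94, 0.91 and 0.97. These levels within detected cells were not corrected for depth, on which detection depends. The median cell with Klra6 had 1 UMI of it in both libraries, at median depths of 2303.5 UMIs under chow and 3295 under KD.

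Counts per cell were higher as well, without correction for depth: the median detected NK-like cell had 5 member UMIs under chow and 9 under KD. Cells with 10 or more member UMIs made up 17.3% (14.6 to 20.2) and 38.2% (35.3 to 41.2). Markers of macrophages differed between the libraries in this cluster: 9 of 10 were detected in each, with Folr2 at 0 UMIs, and they summed to 1044 CPM under chow and 168 CPM under KD. With an assumed 10% admixture of the library's own profile taken away, the ratio of the summed members was 1.28. The actual admixture was not measured. All 8 T cell markers were detected in both libraries and summed to 816 and 1072 CPM. Their part in the difference was not tested.

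In cluster 4 the summed members were 1.37 times higher (1.27 to 1.47) under KD, 924 UMIs in 269 cells against 3248 UMIs in 515 cells. Klra1 went from 291 to 472 CPM, a ratio of 1.62 (1.40 to 1.89), close to its ratio in cluster 1. Klra7 and Klra9 had ratios of 1.22 (1.09 to 1.35) and 1.37 (1.13 to 1.68), while those of Klra3 (1.07, 0.70 to 1.69) and Klra6 (1.09, 0.81 to 1.497) had intervals that include 1. The activating members alone passed 2-fold: Klra4 at 3.15 (1.57 to 7.16) and Klra8 at 3.01 (1.64 to 6.03), 2 of 7 members against 7.52% of the 7511 genes tested in either direction. These ratios rest on few cells. In the cells of cluster 4 without a Trdc UMI, Klra4 was at 12.6 CPM under chow and 11.8 CPM under KD, and Klra8 at 18.9 and 30.9 CPM. In those with a Trdc UMI, Klra4 had 1 UMI under chow and 55 under KD, and Klra8 0 and 46. A single ketogenic cell, with 10794 UMIs in all, held 41 of the 166 Klra4 and Klra8 UMIs of the cluster, and without it Klra4 stood at 2.04 (0.99 to 4.73) and Klra8 at 2.54 (1.37 to 5.12).

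The 9 ketogenic cells of cluster 4 with both Klra4 and Klra8 held 64.5% of these UMIs, all 9 had a Cd3 UMI, 8 had an Ncr1 UMI, and their median depth was 7134 UMIs against 3388 in the cluster. In the cells of cluster 4 without an Ncr1 or Klrb1c UMI, the ratio of Klra4 and Klra8 together was 1.44 (0.46 to 5.29), compared with 3.07 (1.94 to 5.09) in all its cells. The macrophage markers summed to 1175 CPM under chow and 132 CPM under KD in this cluster, and their part was not tested.

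Most NK-like cells with a Ly49 transcript had more than 1 kind. Of the 724 chow cells, 189 had no member UMI, 174 had 1 member, 150 had 2, 119 had 3, 70 had 4 and 22 had 5 or more. Of the 1062 ketogenic cells, 220 had none, 225 had 1, 188 had 2, 201 had 3, 151 had 4 and 77 had 5 or 6. After thinning to 1000 UMIs, 55.5% (50.9 to 60.2) of the detected chow cells and 60.7% (57.1 to 64.4) of the detected ketogenic cells held more than 1 member. In cluster 4 these shares were 40.1% (32.1 to 48.3) and 46.8% (41.2 to 52.4).

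**Figure D3:**
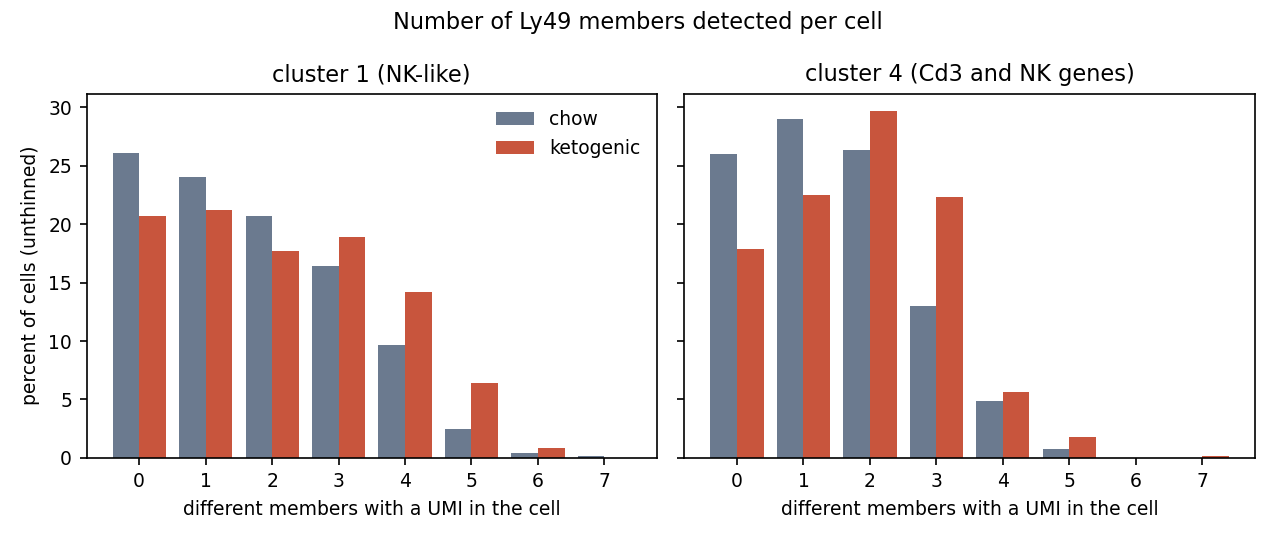
Percent of cells (unthinned) by the number of different members with a UMI in the cell, in cluster 1 (left) and cluster 4 (right), for the chow and ketogenic libraries. Under chow the largest group of NK-like cells has no member (26.1%), and under KD 1 member (21.2%) is about as frequent as none (20.7%).

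NK-like cells with 1 member more often had another than NK-like cells without it. Klra8 was present in 103 of the 165 chow cells with Klra4, 62.4% (54.6 to 69.8), and in 21.8% (18.5 to 25.5) of the 559 cells without it. Under the ketogenic diet it was present in 197 of 285 cells with Klra4, 69.1% (63.4 to 74.4), and in 30.1% (26.9 to 33.5) of the other 777. Klra7, an inhibitory member, followed Klra4 as closely, at 66.1% (58.3 to 73.2) against 26.1% (22.5 to 30.0) under chow and 72.6% (67.1 to 77.7) against 34.0% (30.6 to 37.4) under KD. Cells with and without Klra4 thus differed in Klra7 and Klra8 by intervals that do not overlap in either library.

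Klra4 was likewise more frequent in cells with Klra1, at 56.9% (44.0 to 69.2) against 19.4% (16.5 to 22.7) under chow and 53.7% (44.9 to 62.3) against 22.9% (20.2 to 25.7) under KD. For Klra9 the intervals overlapped: it was present in 43.1% (30.8 to 56.0) of chow cells with Klra1 and 49.9% (46.0 to 53.8) of those without, and in 57.4% (48.6 to 65.8) and 56.9% (53.7 to 60.1) of ketogenic cells. In 20 of the 21 pairs in each library, a member was more frequent in cells with the other than in cells without it, counting any difference, the exception being Klra1 with Klra9 under chow and Klra4 with Klra6 under KD. The smallest of these differences was that of Klra6 by Klra3 under KD, at 3.863% against 3.860%. Among cells that held at least 1 of the remaining 5 members, which sets aside the cells with no Ly49 at all, 16 pairs under chow and 15 under KD had that direction. In that set Klra9 was present in 42.6% of chow cells with Klra1 and 61.2% of those without, and in 57.6% and 68.04% of ketogenic cells. These shares are not thinned, and cells with and without Klra4 had median depths of 2276 and 2300 UMIs under chow and 3026 and 3221 UMIs under KD.

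**Figure D4:**
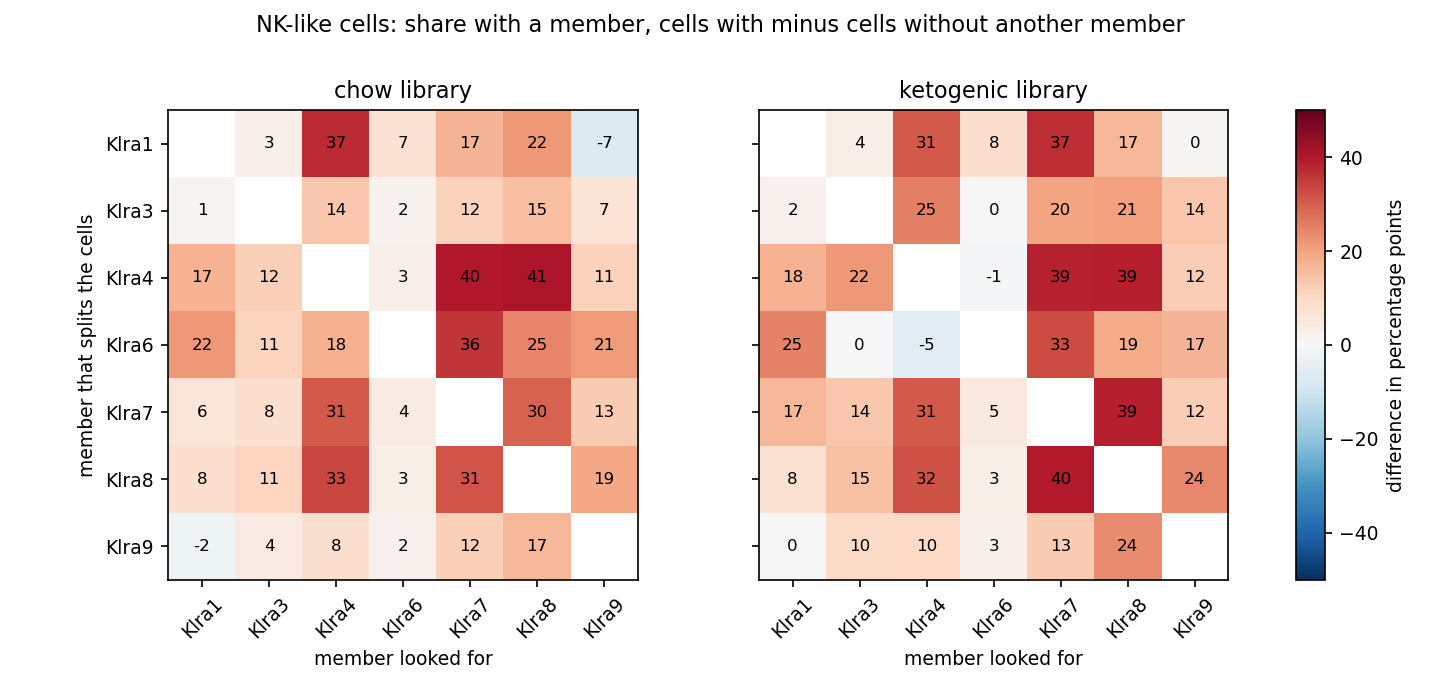
Difference, in percentage points, between the share of NK-like cells with the column's member among cells with the row's member and among cells without it, for each library. Klra8 is more frequent in cells with Klra4 by 40.6 points under chow and 39.0 points under KD, whereas Klra9 differs little by Klra1 (-6.85 and 0.44 points).

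NK-like cells with a Ly49 UMI differed from those without one in genes of maturation and of tissue residence. The comparison was made within each library between 535 and 189 cells under chow and between 842 and 220 under KD, with the Klra genes left out, and a gene was called where it passed 2-fold the same way in both libraries. Of 6536 genes, 0.551% were called higher and 0.413% lower in the cells with Ly49. Of 13 NK maturation genes tested, 6 were called higher and none lower, with medians over the list of 0.87 and 1.13 on the log2 scale in the 2 libraries. Of 12 ILC1 and residence genes, none were called higher and 4 lower, with medians of -0.84 and -1.01. Short of 2-fold, the maturation genes Emb (ratios of 0.63 and 0.63) and Ly6c2 (0.77 and 0.72) were lower in both libraries. Cd69 was the residence gene higher in both, at 1.47 (0.997 to 2.23) and 1.28 (0.994 to 1.68). Itga1 and Cd160 changed direction between the libraries. Both lists were chosen with results of these data known.

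Gzma, a granule protease, was at 3621 CPM in chow cells with Ly49 and 558 CPM in those without, and at 3076 and 391 CPM under KD. Cma1, a chymase best known from mast cells, was at 106 against 9.99 CPM and 87.2 against 2.59 CPM, the last from 2 UMIs. S1pr5, the sphingosine phosphate receptor that mature NK cells use to leave tissues, had 20 and 45 UMIs in the cells with Ly49 and 0 in those without, so that it was at least 2.57-fold and 4.11-fold higher when the other cells are set at 3 UMIs. Gzmb, Prf1 and Itgam (CD11b) were also called higher, with log2 ratios between 1.13 and 1.82.

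Cxcr6, a chemokine receptor of resident lymphocytes, was lower in cells with Ly49, at 34.7 against 89.9 CPM under chow and 54.2 against 154 CPM under KD. Il7r, the interleukin-7 receptor chain, was at 28.5 against 91.9 CPM and 23.7 against 64.7 CPM. Cd200r1 and Ckb were the other residence genes called lower, with log2 ratios between -1.09 and -1.70. Among 12 regulators tested, Eomes, a T-box factor of NK cells, was the gene called, at 109 against 19.98 CPM and 139 against 34.9 CPM.

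Among 12 genes of Ly49 signalling, Sh2d1a, the adaptor known as SAP, was called higher with log2 ratios of 1.61 and 1.53. Of 10 other killer lectin receptors tested, Klri2 was called higher (1.85 and 1.61) and Klrb1b lower (-1.21 and -1.17). None of the 4 genes for class I ligands and their transactivator Nlrc5 were called. Cells with Ly49 were slightly shallower, at median depths of 2253 against 2516 UMIs and 3121.5 against 3380. Macrophage markers summed to 929 CPM in chow cells with Ly49 and 1341 CPM in those without, and to 121 and 339 CPM under KD, and ILC2 markers to 200.4 against 340 CPM and 219 against 333 CPM. Higher with Ly49 was the sum of the NK markers, at 11864 against 6708 CPM and 11730 against 7021 CPM. That list includes Gzma, Eomes, Prf1 and Klri2, which were called higher above. The cDC1 markers summed to 591 against 288 CPM and 550.4 against 316 CPM. Of these sums Irf8, also among the regulators, alone gave 516 against 156 CPM and 510 against 258 CPM. The T cell markers were higher by less, at 849 against 731 CPM and 1102 against 959 CPM. The part of these marker sums in the differences was not tested.

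**Figure D5:**
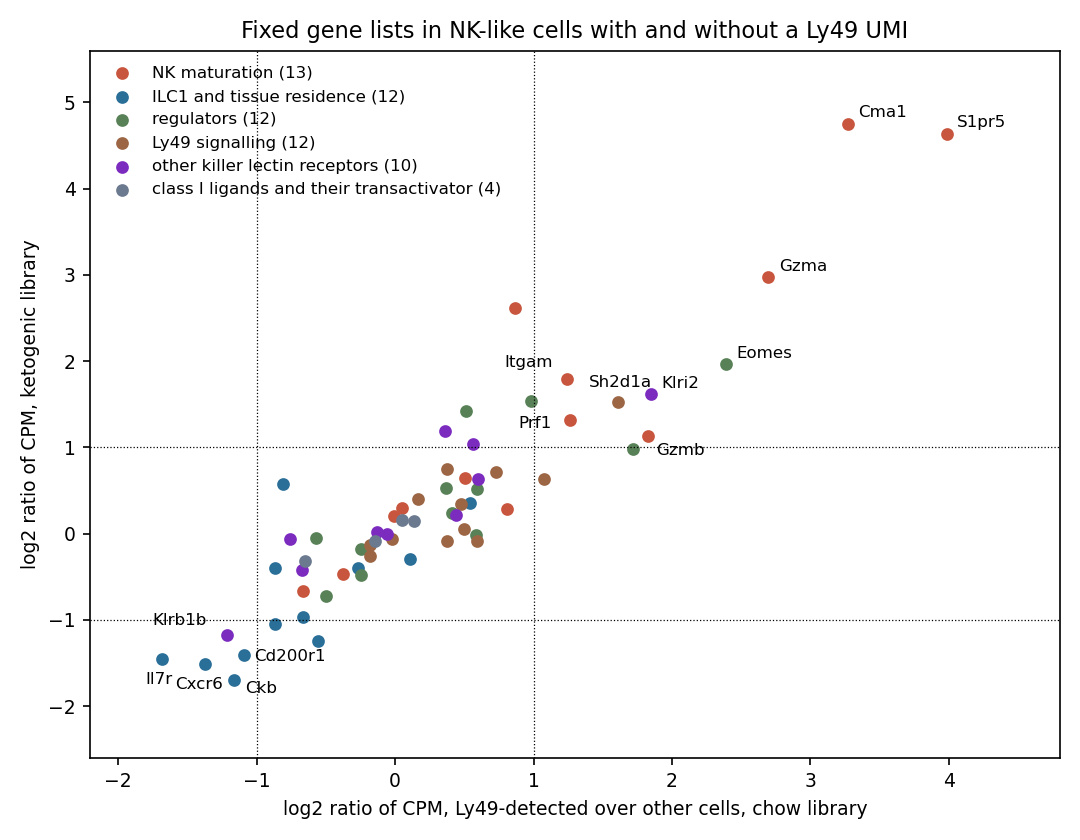
Log2 ratio of CPM (0.5 added to each count) between NK-like cells with and without a Ly49 UMI, in the chow library (x axis) and the ketogenic library (y axis), for 63 genes of 6 lists, with dotted lines at 2-fold. The 14 named genes pass 2-fold in both libraries, 9 of them higher and 5 lower, and the position of S1pr5, with 0 UMIs in the cells without Ly49, is set by the added count.

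Between diets the same lists were compared in clusters 1 and 4. In cluster 1, 0 of 12 signalling genes, 0 of 4 class I genes, 0 of 12 regulators, 0 of 13 residence genes and 0 of 10 other killer lectin receptors passed 2-fold in either direction, beside 5.43% of all genes tested. Of 13 maturation genes, Itga2 (CD49b), an integrin of NK cells, was the one past 2-fold, at 23.4 CPM under chow and 9.46 CPM under KD, a log2 ratio of -1.30. The median log2 ratio was 0.04 for the signalling genes and 0.25 for the other killer lectin receptors, beside 0.31 for the Ly49 members. In cluster 4, 2 of 10 maturation genes tested were past 2-fold higher under KD, Gzma (95.6 to 203 CPM) and Gzmb (111 to 314 CPM), and Itgam was lower, where 7.52% of all genes passed 2-fold in either direction. Under KD Gzma was at 1261 CPM in the 42 cells of cluster 4 with Klra4 or Klra8. It was at 59.8 CPM in the 381 with other members only and 92.2 CPM in the 92 with none. Under chow these levels were 491 CPM in 12 cells, 54.7 CPM in 187 and 127 CPM in 70. Of 13 residence genes, Cd160 was past 2-fold higher and Cd200r1 and Ckb lower, and Klri2, at 10.6 and 26.8 CPM, was the one higher of 10 other killer lectin receptors. Syk was lower among 11 signalling genes and Zeb2 among 12 regulators, from 25 and 65 UMIs in both libraries together.

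Ly49 genes outside the 7 had other distributions. Klra2 was found in the macrophage-like cluster 3, at 86.8 CPM (78.9 to 95.3) under chow and 118 CPM (96.2 to 142) under KD, and Klra17 in the cDC2-like cluster 5, at 66.7 CPM (56.3 to 78.3) and 62.6 CPM (53.6 to 72.7). Klra5 lay in clusters 1 and 4, at 11.7 and 29.2 CPM under chow and 15.6 and 41.8 CPM under KD, an order like that of Klra1 and Klra6. Among Ly49 genes with at least 20 UMIs, Klra10 was the one past 2-fold between diets in cluster 1, at 13.9 CPM (8.998 to 20.5) under chow and 5.56 CPM (3.40 to 8.59) under KD, opposite in direction to the 7 members. Klra13-ps and Klra14-ps were not analysed here.

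Near-identical sequence limits how the counts of some members can be read. Over the last 500 bases of the annotated transcripts, every window of 98 bases was unique to the gene for Klra1, Klra4, Klra6 and Klra8. For Klra3, 94.0% of windows were unique, with the rest shared with Klra10, for Klra7 93.5%, shared with Klra13-ps, and for Klra9 88.3%, shared with Klra11-ps. Leaving out Klra3 and Klra9, the closest pair, put the ratio of the sum between diets in cluster 1 at 1.33 (1.27 to 1.40).

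The genes outside the family whose pattern was most like that of the summed members, over the 26 sums and 10351 genes, were Klrb1c (Pearson r 0.987), Klre1 (0.977), Ncr1 (0.967), Klrc2 (0.963) and Xcl1 (0.951). Klrb1c, which encodes NK1.1, was at 452 CPM in cluster 1 and 223 CPM in cluster 4 under chow, and at 582 and 296 CPM under KD. Ncr1, which encodes NKp46, was at 552 and 131 CPM under chow and at 785 and 221 CPM under KD, so that it too was higher in the ketogenic library in both clusters. Klre1 was not, at 611 against 563 CPM in cluster 1 and 373 against 292 CPM in cluster 4.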

How the data were processed

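The deposited files are raw UMI counts per gene and cell, made by the authors with Cell Ranger on the mm10 build, and a table of cluster numbers; Seurat is also named, per the submitters' processing notes. Depths are in the report. UMIs were summed per deposited cluster (resolution 0.5) and library and divided by their total. The 87 chow and 55 ketogenic cells without a cluster entered no comparison. Clusters were named where at least 3 fixed markers were raised 2-fold and at least 1 was among the 10 leading genes. Intervals are exact Poisson for CPM, exact binomial for shares and exact conditional for ratios. Shares were thinned to 1000 UMIs per cell by the exact hypergeometric expectation. Log2 ratios add 0.5 to each count, over genes with at least 20 UMIs. A floor of 3 counts replaces 0 in bounds. The ratio and thinning scripts were tested on simulated data. Motifs were searched on both strands. Python 3.11.15 with numpy 2.4.6, scipy 1.17.1, pandas 2.3.3, matplotlib 3.10.9 and Biopython 1.88 was used. No doublet caller was run, and doublet removal upstream is not given in the sources used here. All 7 members and the tested list genes past 2-fold in both libraries, Klra genes left out, were named or counted, and 1 list gene is not reported here; the members and lists were chosen with earlier results of these data known.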

Additional observations from a re-analysis of the deposited data

Results flagged for a closer look

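The cells outside the deposited clusters, which entered no comparison, also held the members. The 55 such ketogenic cells had 162 member UMIs, 923 CPM (786 to 1076), and the 87 chow cells had 112, 504 CPM (415 to 606). A member UMI was found in 22 and 27 of these cells, of which 12 and 14 had a UMI of Ncr1 or Klrb1c. The cell with the most held 20.99% and 16.1% of the member UMIs, and 47 of the ketogenic UMIs were of Klra1 against 10 under chow.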

How the results depend on the processing

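No paired analysis was possible because each diet had 1 library. The ratio of the summed members between diets in NK-like cells was above 1 under every alternative run, from 1.18 in cells with a Ly49 UMI to 1.68 in cells taken by marker UMIs, and was 1.37 over cells above the ketogenic library's depth minimum. The cells taken by marker UMIs differed in make-up, as 73.3% of them under chow and 81.3% under KD lay in cluster 1. The part of this in the value of 1.68 was not tested. Median-ratio scaling, the mean over cells, and leaving out the shared barcodes gave 1.26, 1.30 and 1.30. No member passed 2-fold there, and 1 of 7 did (Klra1) at 1.5-fold, beside 20.9% of genes, or in cells taken by marker UMIs, beside 9.25%. Without the ketogenic cell richest in Klra4 and Klra8, 1 member passed 2-fold in cluster 4 once 0.5 was added to each count (log2 ratios of 0.97 for Klra4 and 1.29 for Klra8), and in cells without Ncr1 or Klrb1c the Klra4 and Klra8 ratio was 1.44. The share of NK-like cells with a member was 73.9% and 79.3% (chow, ketogenic) unthinned, 69.1% and 72.9% at 1500 UMIs, 49.6% and 57.5% in cells taken by marker UMIs, and 45.8% and 54.1% for at least 2 member UMIs. The share with more than 1 member was 67.5% and 73.3% unthinned, and 62.3% and 66.6% at 1500 UMIs. At 1.5-fold, 15 list genes were higher and 8 lower in cells with Ly49, in place of 9 and 5, beside 3.595% in place of 0.964% of all genes in either direction. The cause of these shifts was not tested. The alternatives that leave out that cell or the shared barcodes, or keep cells with a Ly49 UMI or without NK receptors, and the comparison of marker-taken cells with and without Cd3, were chosen after seeing the data.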
